A study of Homo sapiens with 60 samples.

Results

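To ask how the transcriptional responses to cadmium and mercury differ when the metals are set directly against each other, the 3 libraries from cells treated for 6 h with 2.3 µM cadmium chloride (Cd) were compared with the 3 from cells treated for 6 h with 20 µM mercury chloride (Hg). These are 6 of the 60 libraries of a time course in 1321N1, an established human astrocytoma cell line, and 12341 of 62703 genes had enough counts to be tested. All cells were unmodified 1321N1 cells grown in DMEM with fetal bovine serum, penicillin and streptomycin, and the metals were added in full medium. The 3 non-treated libraries of 6 h (nt) are given beside both metals as the background. Treatments were done in triplicate on 1 cell line. A legend of the study that covers these data together with viability assays speaks of independent experiments, but the labels of the libraries do not say that the 3 came from separate cultures, so the p-values measure only the spread between these libraries, which may be technical. The metals were used at different molar doses, which the study chose for a like toxicity. Metal and dose therefore cannot be told apart, and the values compare the treatments as given. In these bulk samples, fewer cells expressing a gene and less RNA per cell cannot be told apart either.

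Libraries held 2589901 to 3299824 counts with Cd and 3442039 to 4110137 with Hg. Levels are given as CPM, counts scaled to the library total after TMM normalization, and differences as the log2 fold change of Cd over Hg (LFC), so that a positive LFC means higher with Cd. Of the astrocyte markers, GFAP, S100B, AQP4, ALDH1L1 and FABP7 had no count in any of the 9 libraries of 6 h, whereas VIM and CD44 were abundant, and none of the 6 tested markers passed the test between Cd and Hg. The summed level of all 14 astrocyte markers was 4762 to 5268 CPM with Cd and 4041 to 5443 with Hg. VIM alone had a mean of 4464 CPM with Cd and 4239 with Hg, so the sum mostly follows that gene. SLC1A2, SLC1A3 and APOE had too few counts to test. Of 18 markers of other brain cell types, SYT1, MAP2 and PDGFRA had enough counts to be tested and none passed. Their summed level was 32.4 to 45.0 CPM with Cd and 36.1 to 42.7 with Hg. One library stood apart. In Cd replicate 1, 1.35% of the counts came from the mitochondrial chromosome, against 5.08% and 5.84% in the other 2 Cd libraries, 5.77% to 6.28% with Hg and 5.36% to 5.55% in nt. Named genes whose call was lost without it are marked as such.

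Several programmes are known to answer to these metals. MTF1 is a zinc-sensing factor that drives metallothioneins and the zinc exporter SLC30A1. NRF2, released when reactive cysteines of its repressor KEAP1 are modified, drives glutathione synthesis, thioredoxin recycling and HMOX1. HSF1 drives chaperones when proteins misfold, and ATF4 is translated during the integrated stress response and drives amino acid transport and synthesis. Metallothioneins are small cysteine-rich proteins that bind zinc, cadmium and mercury ions.

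At 6 h, 80 genes were called (adjusted p under 0.05 and an LFC beyond 1 in either direction, edgeR's quasi-likelihood test with Benjamini-Hochberg adjustment), which is 0.648% of the genes tested. Of these, 39 were higher with Cd (0.316%) and 41 higher with Hg (0.332%). The adjusted p alone was met by 467 genes (3.78%), 203 higher with Cd (1.64%) and 264 higher with Hg (2.14%), and the median LFC over all genes was 0.0037. Every Cd library lay above every Hg library in 8.52% of the genes tested, and every Hg library above every Cd library in 8.56%. Called genes were chosen by the difference between these same libraries, so their lack of overlap is a description. The genes higher with Cd were led by metallothioneins, and those higher with Hg held NRF2 and ATF4 targets. The numbers depended on single libraries. Without Hg replicate 3 they were 57 higher with Cd and 69 higher with Hg, and without Hg replicate 2 the number higher with Hg was 27.

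**Figure D1:**
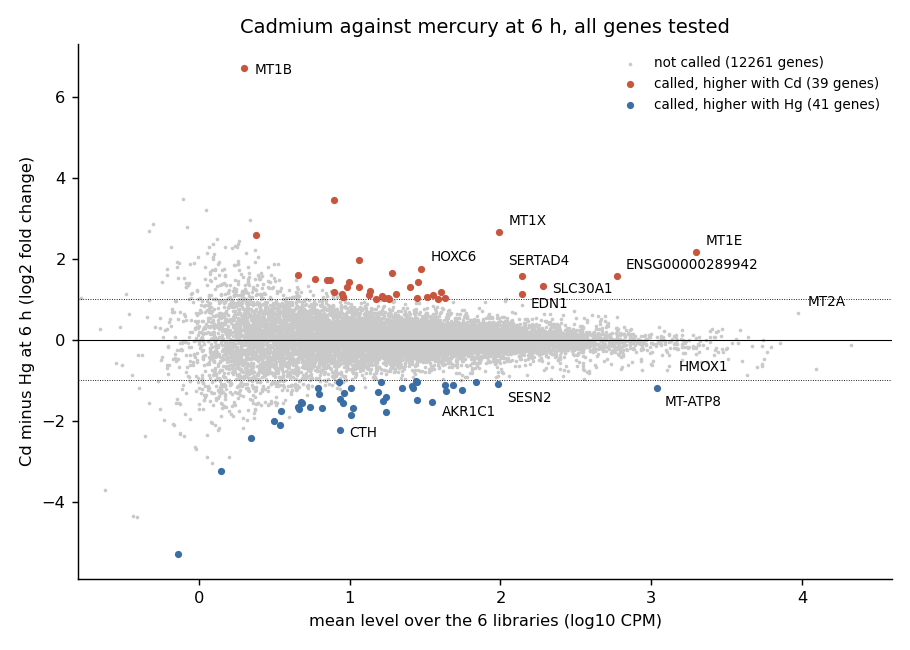
Difference between Cd and Hg at 6 h (LFC, vertical axis) against the mean level over the 6 libraries (log10 CPM, horizontal axis), one dot per gene tested, with called genes coloured and dotted lines at an LFC of 1 and -1. The called genes lie on both sides, 39 higher with Cd and 41 higher with Hg, and MT1X and MT1E lie highest among the well-expressed genes.

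All 4 metallothionein genes with enough counts were higher with Cd, MT1X, MT1E, MT1B and MT2A, and the first 3 were called. The list held 12 genes, and its tested members had a median LFC of 2.40, also with MT1B at its lower bound. All 4 lie on chromosome 16. The promoters of MT1X and MT2A are shown around their matches to the core of the metal response element, the site bound by MTF1, searched as TGCNCNC on both strands from 250 bases before to 50 bases after the start of the gene, together with that of SLC30A1. Sequences are from RefSeq (GRCh38.p14), 5′ to 3′ in the direction of the gene, with the matches in capitals.
MT1X, chr16:56682300-56682443, plus strand: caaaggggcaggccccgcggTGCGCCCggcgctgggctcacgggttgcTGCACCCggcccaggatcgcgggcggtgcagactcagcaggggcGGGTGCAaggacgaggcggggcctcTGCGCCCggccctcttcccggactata
MT2A, chr16:56608334-56608633, plus strand: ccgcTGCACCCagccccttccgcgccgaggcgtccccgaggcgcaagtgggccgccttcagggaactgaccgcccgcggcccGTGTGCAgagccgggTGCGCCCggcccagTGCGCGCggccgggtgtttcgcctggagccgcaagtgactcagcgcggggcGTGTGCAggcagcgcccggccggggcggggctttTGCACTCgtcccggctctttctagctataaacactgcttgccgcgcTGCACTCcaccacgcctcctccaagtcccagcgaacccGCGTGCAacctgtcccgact
SLC30A1, chr1:211579112-211579230, minus strand: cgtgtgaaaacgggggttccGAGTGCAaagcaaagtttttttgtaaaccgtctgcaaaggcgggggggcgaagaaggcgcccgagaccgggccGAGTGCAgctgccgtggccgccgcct
MT1X held 4 matches, MT2A 8 and SLC30A1 2. Matches to this short motif were common, in 55.2% of all 27305 promoters of that length and in 63.3% of the 9446 promoters found for tested genes. They were found for 66.7% of the 30 genes called higher with Cd that had a promoter, and for 75.0% of the 28 called higher with Hg.

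MT1X (chr16:56682470-56684196, plus strand, GRCh38) stood at 167, 167 and 175 CPM with Cd, 24.98, 32.5 and 23.8 with Hg and 8.98, 6.95 and 2.89 in nt. Every Cd library lay above every Hg library, and every Hg library above every nt library. The mean was 169.8 ± 4.45 CPM with Cd against 27.1 ± 4.73 with Hg (SD, n = 3 each), a 6.27-fold difference (LFC 2.65, SE 0.16, adjusted p = 9.2e-21). MT1E (chr16:56625475-56627112, plus strand) stood at 3174, 3108 and 3446 CPM with Cd, 745, 779 and 653 with Hg and 204, 250.4 and 289 in nt, and again the 3 groups did not overlap. The difference was 4.47-fold (LFC 2.16, SE 0.10, adjusted p = 4.44e-26). Relative to nt, the LFC of MT1E was 3.71 with Cd and 1.55 with Hg, so both metals raised it and Cd raised it further.

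MT1B had 12, 13 and 9 counts in the Cd libraries and 0 in each Hg library. With 3 counts over the Hg group as the limit that a count of 0 allows, its observed level with Cd was at least 14.02-fold higher. That bound covers only the counting error of the Hg group, not that of the Cd counts. MT1G had 0, 4 and 4 counts with Cd and 0 in all Hg libraries, too few to test. MT2A (chr16:56608584-56609497, plus strand), the most counted metallothionein gene, stood at 11285, 11622 and 11751 CPM with Cd, 8613, 9312 and 4086 with Hg and 2540.0, 2591 and 2646 in nt. All Cd libraries lay above all Hg libraries, but Hg replicate 3 was far below the other 2 Hg libraries. The LFC was 0.66 (SE 0.19, adjusted p = 0.0279), and without Hg replicate 3 it was 0.36 (adjusted p = 0.279). MT2A also missed the threshold without Cd replicate 1, 2 or 3 (adjusted p = 0.0627, 0.0721 and 0.0765).

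An unnamed long non-coding RNA on another chromosome was also called higher with Cd. ENSG00000289942 (chr4:68376551-68376665, plus strand) stood at 982, 836 and 824 CPM with Cd, 257, 301 and 333 with Hg and 183, 232 and 219.6 in nt. Every Cd library lay above every Hg library (LFC 1.57, SE 0.13, adjusted p = 1.33e-14). Its single transcript of 115 bases lies 3′ of MT2P1, a processed pseudogene (GENCODE 44). In a local alignment, 97 of 100 columns were identical between it and MT2A, and 4.55% of its 50-base words occur in MT2A. How many of its counts came from MT2A was not tested. In the same way, 34.7% of the 50-base words in the last 400 bases of the MT1X transcripts also occurred in transcripts of other genes. The share was 18.4% for MT1B, 6.19% for MT1E and 6.11% for MT2A. Shares of 50-base words given for other genes below also cover only the last 400 bases of their transcripts.

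Of 16 tested zinc transporters, 1 differed, where 3.78% of all genes tested did, so this single member does not mark the list. SLC30A1, which moves zinc out of the cell, stood at 253, 258 and 308 CPM with Cd, 104, 103 and 118 with Hg and 36.7, 42.4 and 48.5 in nt. The Hg libraries lay above nt and below all Cd libraries (LFC 1.33, SE 0.12, adjusted p = 3.14e-13). SLC39A14, an importer that also carries cadmium, stood at 90.9, 92.5 and 105 CPM with Cd, 123, 98.7 and 117 with Hg and 53.9, 78.2 and 79.3 in nt, and the metals overlapped. Its LFC was -0.23 (95% confidence interval -0.54 to 0.077, adjusted p = 0.487). For SLC39A10, another zinc importer, the LFC was -0.44 (95% confidence interval -1.04 to 0.17, adjusted p = 0.515).

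**Figure D2:**
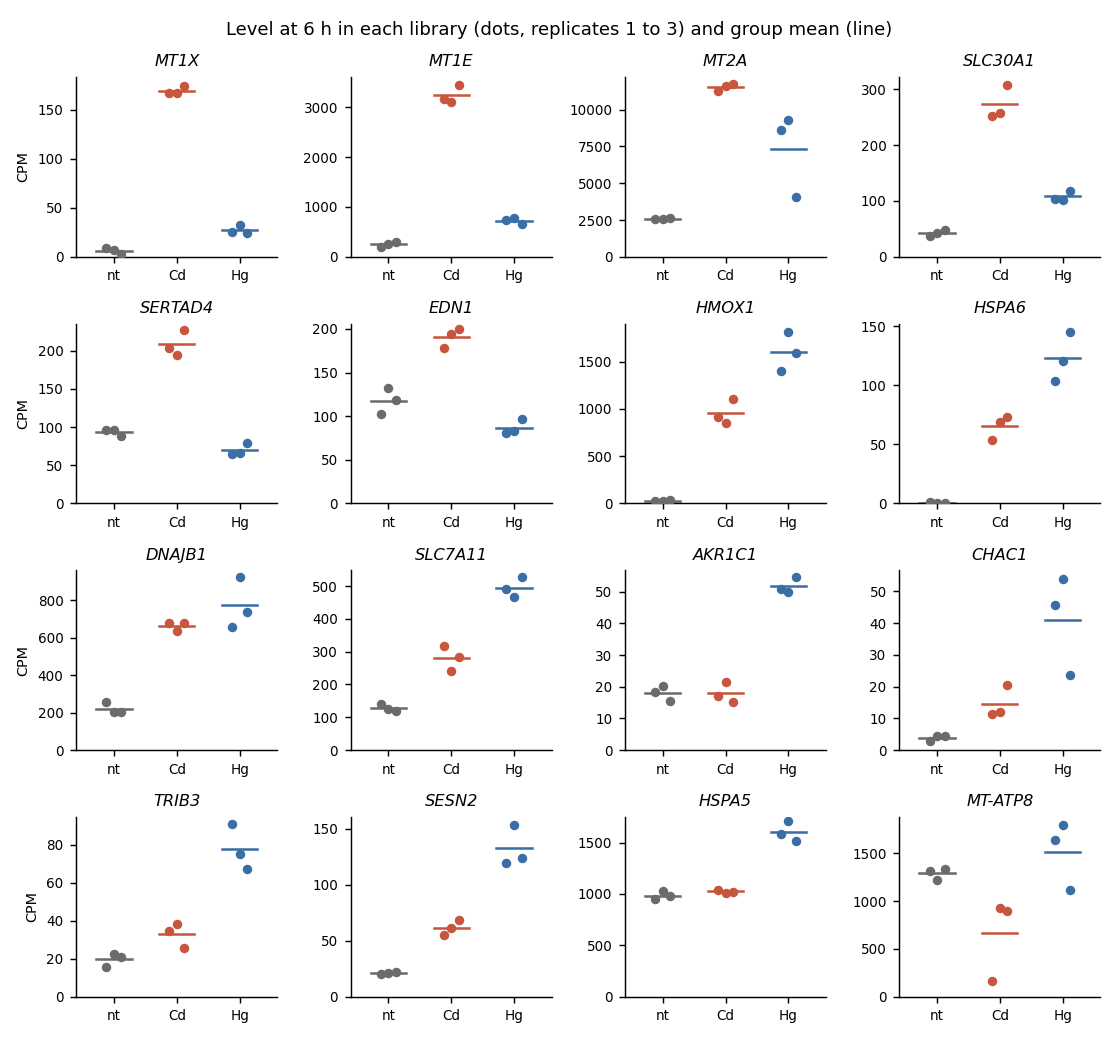
Level at 6 h (CPM, vertical axes starting at 0) of 16 genes in each library (dots) of nt, Cd and Hg, with the group mean as a line. MT1X, MT1E, SLC30A1, SERTAD4 and EDN1 lie highest with Cd, whereas HMOX1, HSPA6, SLC7A11, AKR1C1, CHAC1, TRIB3, SESN2 and HSPA5 lie highest with Hg, and DNAJB1 overlaps between the metals.

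Beyond the metal-handling genes, the largest differences in favour of Cd among well-expressed genes included HOXC6, SERTAD4, CNKSR3 and EDN1. HOXC6, a homeobox transcription factor, stood at 40.2, 47.2 and 50.5 CPM with Cd, 12.5, 14.5 and 13.8 with Hg and 15.5, 20.8 and 11.9 in nt (LFC 1.75, SE 0.21, adjusted p = 7.65e-09). The Hg and nt libraries overlapped, and the Cd libraries lay above both. SERTAD4 showed the same arrangement at 204, 194 and 227 CPM with Cd, 64.3, 66.2 and 79.8 with Hg and 96.7, 96.1 and 87.97 in nt, except that its Hg libraries lay below nt (LFC 1.57, SE 0.11, adjusted p = 1.08e-17). CNKSR3, a scaffold protein, had an LFC of 1.42 (adjusted p = 3.63e-06), with 1.16 with Cd and -0.26 with Hg against nt. It shares 35.9% of its 50-base words with an unnamed gene, ENSG00000288520. EDN1, which encodes the vasoconstrictor endothelin-1, stood at 178, 194 and 199.8 CPM with Cd, 80.7, 83.1 and 96.3 with Hg and 103, 132 and 118 in nt (LFC 1.13, SE 0.12, adjusted p = 5.18e-10). EDN1 was above nt with Cd and below it with Hg, with LFCs of 0.69 with Cd and -0.44 with Hg (adjusted p = 9.12e-05 and 0.0168).

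In another group of genes the Hg libraries lay below nt. The bHLH factor ATOH8 stood at 27.4, 40.6 and 39.5 CPM with Cd, 15.2, 14.5 and 13.8 with Hg and 44.5, 32.9 and 53.6 in nt (LFC 1.30, SE 0.21, adjusted p = 1.14e-05). Its Cd and nt libraries overlapped and its Hg libraries lay below both. CTDSP1, a phosphatase of the RNA polymerase II tail, had LFCs against nt of -0.31 with Cd and -1.42 with Hg, PLPP3, a lipid phosphate phosphatase, 0.14 with Cd and -1.04 with Hg, RNF150, a RING finger protein, 0.36 with Cd and -0.78 with Hg, and the translesion DNA polymerase POLH 0.26 with Cd and -0.76 with Hg. For these 4 genes the direct LFCs were 1.10, 1.18, 1.13 and 1.02, with adjusted p-values of 4.58e-05, 3.2e-06, 0.000421 and 7.37e-05. Without Cd replicate 1 the calls of PLPP3 (LFC 0.99), RNF150 (LFC 0.94) and POLH (LFC 0.87) were lost, and that of POLH also without Cd replicate 2 or Hg replicate 3, though each kept an adjusted p under 0.05. PLPP3 shares 23.6% of its 50-base words with another annotated gene. IER5L, of the immediate-early list, overlapped nt with Hg and lay above it with Cd (LFC 1.02, adjusted p = 0.000104), with LFCs against nt of 1.02 with Cd and 0.005 with Hg. Its LFC was 0.82 without Cd replicate 3 and 0.86 without Hg replicate 3, which ended the call. The 39 genes called higher with Cd had a median LFC against nt of 0.69 with Cd and -0.69 with Hg. They were chosen by the direct difference, and both comparisons share the nt libraries, so the medians are a description.

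**Figure D3:**
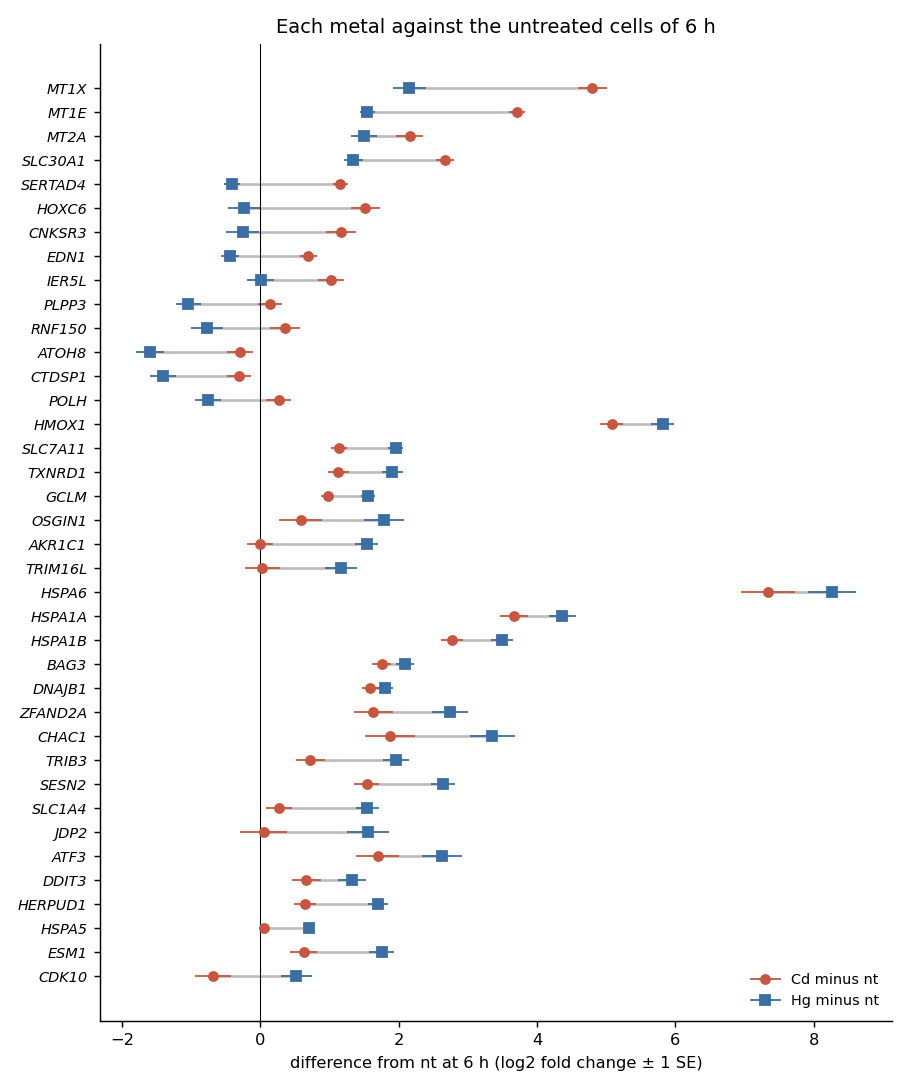
LFC against nt at 6 h for Cd (circles) and Hg (squares), ± 1 SE, for 38 genes, with the gap between the metals as a grey line. Metallothioneins and SLC30A1 lie right of 0 for both metals with Cd further out, SERTAD4, HOXC6, CNKSR3 and EDN1 lie on opposite sides of 0, and the antioxidant, chaperone and ATF4 genes lie further right with Hg.

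Of 42 tested NRF2 targets, 16 differed, all 16 higher with Hg, and 4 of them were called. By the adjusted p, 2.14% of all genes tested were higher with Hg, and 0.332% were called so. The median LFC of the list was -0.41, against 0.0037 over all genes. HMOX1, which breaks down haem, was raised by both metals, at 913, 853 and 1107 CPM with Cd, 1398, 1809 and 1588 with Hg and 28.98, 20.8 and 34.7 in nt. The 2 metals did not overlap, and Hg was 1.67-fold higher (LFC -0.74, SE 0.13, adjusted p = 3.53e-05). AKR1C1, an aldo-keto reductase, stood at 16.99, 21.5 and 15.3 CPM with Cd, 50.9, 49.95 and 54.8 with Hg and 18.4, 20.1 and 15.4 in nt. The Cd and nt libraries overlapped and every Hg library was above both (LFC -1.54, SE 0.16, adjusted p = 2.38e-10). Of its 50-base words, 31.4% occur in its paralogs AKR1C2, AKR1C3 and AKR1C4.

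OSGIN1, an oxidative stress-induced growth inhibitor, had a mean of 13.3 ± 4.28 CPM with Cd against 31.01 ± 0.895 with Hg (SD, n = 3 each), and the ranges did not overlap (LFC -1.21, SE 0.27, adjusted p = 0.00292). TRIM16L gave LFC -1.14, adjusted p = 0.000554, but 68.6% of its 50-base words are shared with other genes, TRIM16 among them, and without Cd replicate 2 the LFC was -0.96, which ended the call. The glutathione S-transferase GSTM3 was called on low levels, at 1.79, 0 and 0 CPM with Cd, 4.27, 4.94 and 2.21 with Hg and 0.816, 1.10 and 2.25 in nt (LFC -2.43, adjusted p = 0.0284), and lost its call without Cd replicate 2 or 3 or Hg replicate 1 or 2, with adjusted p-values of 0.0953 to 0.176. SLC7A11, the cystine importer, stood at 318, 239.6 and 284 CPM with Cd, 490.2, 467 and 527 with Hg and 139.6, 124 and 120.1 in nt (LFC -0.82, SE 0.11, adjusted p = 6.12e-08). GCLM, the modifier subunit of the enzyme that starts glutathione synthesis, gave LFC -0.58, adjusted p = 4.7e-06, and the thioredoxin reductase TXNRD1 LFC -0.78, adjusted p = 0.000174. For each of these 3 genes, all Hg libraries lay above all Cd libraries, and all Cd libraries above all nt libraries. The ferritin subunits FTH1 and FTL, with LFCs of -0.53 and -0.54, were also among the 16. SRXN1 was listed at 0 in every library and was not tested.

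Among glutathione enzymes as a list, 4 of 23 differed, GSTM3, CTH, CHAC1 and GCLM, where 3.78% of all genes tested did. The median LFC of the list was 0.0032. CTH, cystathionine gamma-lyase, which makes cysteine, stood at 2.38, 3.12 and 3.56 CPM with Cd, 10.7, 14.2 and 17.7 with Hg and 1.22, 2.19 and 4.49 in nt. The Cd libraries were within the range of nt and all Hg libraries lay above it (LFC -2.24, SE 0.35, adjusted p = 7.39e-06). Matches to the antioxidant response element, the site bound by NRF2 and searched as TGACNNNGC on both strands, are shown in the promoters of GCLM and TXNRD1 (RefSeq, GRCh38.p14, matches in capitals).
GCLM, chr1:93909436-93909484, minus strand: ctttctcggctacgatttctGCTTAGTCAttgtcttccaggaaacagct
TXNRD1, chr12:104215660-104215799, plus strand: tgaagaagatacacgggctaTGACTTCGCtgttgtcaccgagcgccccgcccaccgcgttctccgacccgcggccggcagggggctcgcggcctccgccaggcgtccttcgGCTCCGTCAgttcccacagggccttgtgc
Of 33 NRF2 targets with a promoter, 24.2% held such a match, against 15.2% of the tested genes. The share was 30% of 40 promoters in the heat-shock and chaperone list and 26.2% of 42 among ATF4 targets. All 3 metallothionein promoters held a match too, so the match did not set the NRF2 targets apart from these lists. The windows of the called members AKR1C1, OSGIN1 and GSTM3 did not hold these letters.

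Of 48 tested heat-shock and chaperone genes, 13 differed, all 13 higher with Hg, and 1 was called. The shares over all genes tested were 2.14% higher with Hg and 0.332% called so. The median LFC was -0.24. HSPA6, a stress-inducible HSP70, stood at 53.6, 68.7 and 72.9 CPM with Cd, 104, 120.2 and 145 with Hg and 0.816, 0 and 0.321 in nt. It had 3 counts over the nt libraries in all, so its ratio to nt, 178 with Cd (exact 95% counting interval 60.5 to 865) and 344 with Hg (118 to 1671), is imprecise. Between the metals, every Hg library lay above every Cd library (LFC -0.92, SE 0.16, adjusted p = 3.43e-05). The neighbouring HSP70 genes HSPA1A and HSPA1B gave LFC -0.70, adjusted p = 0.000951 and LFC -0.72, adjusted p = 0.000297. They encode near-identical proteins, and 6.76% of the 50-base words in the last 400 bases of HSPA1A transcripts also occur in HSPA1B. ZFAND2A, a proteasome-associated protein known to be induced by arsenite, was the called member, at 25.3, 27.7 and 28.4 CPM with Cd, 63.7, 54.02 and 57.9 with Hg and 13.1, 6.58 and 7.06 in nt (LFC -1.11, SE 0.22, adjusted p = 0.000382). No group of ZFAND2A overlapped another.

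A pair of co-chaperones did not pass. DNAJB1, the HSP40 partner of HSP70, stood at 681, 634 and 682 CPM with Cd, 657, 924 and 738 with Hg and 258, 205 and 204 in nt, and the metals overlapped. Its LFC was -0.22 (95% confidence interval -0.44 to 0.012, adjusted p = 0.348). BAG3, a nucleotide exchange factor that links HSP70 to autophagy, stood at 210.4, 247 and 251 CPM with Cd and 285, 283 and 327 with Hg (LFC -0.34, 95% confidence interval -0.58 to -0.10, adjusted p = 0.101). The LFC of HSPA6 lies outside both intervals. The other members that differed had LFCs of -0.28 to -0.59 and included the mitochondrial chaperonin pair HSPD1 and HSPE1, the co-chaperones HSPH1 and DNAJA1, and the collagen chaperone SERPINH1. The promoter of HSPA6 holds a full heat-shock element, the site bound by HSF1, shown in capitals (RefSeq, GRCh38.p14).
HSPA6, chr1:161524446-161524498, plus strand: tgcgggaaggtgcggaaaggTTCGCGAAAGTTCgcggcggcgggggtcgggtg
The element was found, on either strand, in 15% of 40 promoters of the list and in 0.318% of promoters of tested genes. The windows of HSPA1A, HSPA1B, DNAJB1, BAG3 and the called member ZFAND2A did not hold it.

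ATF4 targets held the largest number of differing members. Of 51 tested, 29 were higher with Hg and 1, TXNIP, was higher with Cd, and 5 were called, all higher with Hg. Over all genes tested, 2.14% were higher with Hg and 1.64% with Cd, and 0.332% were called higher with Hg. The list median was -0.66. CHAC1, which degrades glutathione and is a classical ATF4 target, stood at 11.3, 12.1 and 20.6 CPM with Cd, 45.7, 54.02 and 23.6 with Hg and 2.86, 4.39 and 4.49 in nt. The ranges did not overlap, though Hg replicate 3 lay close to Cd replicate 3 (LFC -1.48, SE 0.27, adjusted p = 0.000104). TRIB3, a pseudokinase, stood at 34.9, 38.2 and 25.6 CPM with Cd, 90.8, 75.2 and 67.03 with Hg and 15.9, 22.7 and 20.9 in nt (LFC -1.24, SE 0.18, adjusted p = 6.19e-07), and SESN2, a stress-induced inhibitor of mTORC1, at 54.8, 61.3 and 68.6 CPM with Cd, 119, 154 and 124 with Hg and 20.00, 21.6 and 21.8 in nt (LFC -1.11, SE 0.15, adjusted p = 3.16e-07). For both, every Hg library lay above every Cd library. Without Hg replicate 2 the LFC of SESN2 was -0.997, short of a call.

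The neutral amino acid transporter SLC1A4 gave LFC -1.28, adjusted p = 1.02e-07, with 0.27 with Cd and 1.55 with Hg against nt, and the AP-1 repressor JDP2 gave LFC -1.51, adjusted p = 0.000447, with 0.044 with Cd and 1.56 with Hg against nt. Thus SLC1A4 and JDP2 differed from nt with Hg (adjusted p = 1.58e-10 and 0.000149), and their LFCs with Cd did not pass (adjusted p = 0.595 and 0.98). The stress transcription factors ATF3 and DDIT3 gave LFC -0.93, adjusted p = 0.0133 and LFC -0.66, adjusted p = 0.0309. DDIT3 missed the threshold without any one of the libraries compared except Hg replicate 3, with adjusted p-values of 0.0704 to 0.244, and ATF3 missed it without Cd replicate 2 (adjusted p = 0.0766). The 29 members higher with Hg included 8 cytosolic tRNA synthetases (AARS1, CARS1, GARS1, NARS1, SARS1, TARS1, WARS1 and YARS1), the serine enzymes PHGDH, PSAT1 and SHMT2, and ATF4 itself (LFC -0.49, adjusted p = 0.0155). GDF15, a secreted stress cytokine, did not pass (LFC -0.81, 95% confidence interval -1.32 to -0.30, adjusted p = 0.0584). It passed in 3 of 13 alternatives, DESeq2 among them (adjusted p = 0.029). SAT1, which acetylates polyamines, was higher with Hg (LFC -0.83, adjusted p = 7.05e-05). TXNIP, which binds thioredoxin, was below nt with both metals and lower with Hg, with LFCs against nt of -0.90 with Cd and -1.64 with Hg, and it did not pass without Hg replicate 1.

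The element bound by ATF4, searched as TGATGNAA on both strands, was found in 26.2% of 42 promoters of the list and in 1.63% of those of tested genes. Of the called members, CHAC1 held it, and the windows of TRIB3, SESN2, SLC1A4 and JDP2 did not. The match is shown for CHAC1 and for HERPUD1, which is not in the ATF4 list (RefSeq, GRCh38.p14, matches in capitals).
CHAC1, chr15:40953242-40953289, plus strand: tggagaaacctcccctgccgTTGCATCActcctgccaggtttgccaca
HERPUD1, chr16:56931946-56931993, plus strand: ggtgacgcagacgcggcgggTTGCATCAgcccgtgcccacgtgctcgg
HERPUD1, a membrane protein of ER-associated degradation, was the called member of the list of ER chaperones and XBP1 targets, at 40.8, 45.3 and 49.1 CPM with Cd, 86.8, 106 and 87.7 with Hg and 29.4, 28.1 and 28.6 in nt (LFC -1.05, SE 0.14, adjusted p = 1.58e-07). Of 34 tested members, 5 differed, all higher with Hg, against 2.14% of all genes tested, and the list median was -0.081. The others were XBP1, HSPA5, SDF2L1 and SELENOK, and 3 members passed without Hg replicate 2. HERPUD1 kept an adjusted p under 0.05 but not its call without Cd replicate 1 (LFC -0.99) or Hg replicate 2 (LFC -0.97). HSPA5, the main chaperone of the ER lumen, stood at 1038, 1013 and 1022 CPM with Cd, 1579.6, 1709 and 1519 with Hg and 947, 1025 and 982 in nt. Its Cd libraries overlapped nt and its Hg libraries lay above both (LFC -0.65, SE 0.075, adjusted p = 3.24e-09). MANF, another ER stress gene, did not pass (LFC -0.26, 95% confidence interval -0.43 to -0.10, adjusted p = 0.0586). It passed in 5 of 13 alternatives, DESeq2 among them (adjusted p = 0.0213).

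ESM1, which encodes the secreted proteoglycan endocan, and the kinase CDK10 complete the 12 largest differences in favour of Hg among well-expressed genes (LFC -1.13, adjusted p = 5.34e-06 and LFC -1.21, adjusted p = 0.000569). CDK10 had LFCs against nt of -0.69 with Cd and 0.52 with Hg, and neither passed (adjusted p = 0.177 and 0.172). MT-ATP8, a mitochondrially encoded subunit of ATP synthase, stood at 166, 932 and 899 CPM with Cd, 1634, 1796 and 1120.2 with Hg and 1316, 1224 and 1340.1 in nt (LFC -1.19, SE 0.31, adjusted p = 0.0121). The lowest value was that of Cd replicate 1, the library with the low mitochondrial share, and without it the LFC was -0.74 (adjusted p = 0.167). MT-ATP8 also missed the threshold without Hg replicate 1 or 2 (adjusted p = 0.0522 and 0.0831). Of 13 mitochondrially encoded subunits, 4 passed with all libraries (median LFC -0.63) and 0 without Cd replicate 1 (median LFC -0.23). Their number was 10 without Cd replicate 3, 1 without Hg replicate 1 and 0 without Hg replicate 2. What set Cd replicate 1 apart was not tested.

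Ubiquitin and autophagy receptors were higher with Hg in 7 of 28 tested genes, among them SQSTM1, UBB, VCP, MAP1LC3B and ULK1, with a median LFC of -0.15. GABARAPL1, the called member, was low in all groups, at 1.79, 0.781 and 2.13 CPM with Cd and 3.35, 5.23 and 7.86 with Hg (LFC -1.77, adjusted p = 0.0368), and it lost its call without any one of the libraries compared other than Hg replicate 1. The number of members was 4 without Cd replicate 1, 2 or 3 or Hg replicate 2. Proteasome subunits were higher with Hg in 3 of 37, PSMD11, PSMD13 and PSMD14, and ribosomal proteins in 5 of 74, RPL41, RPLP1, RPLP2, RPS21 and RPS27. Of all genes tested, 2.14% were higher with Hg by the adjusted p. Without Cd replicate 2 or 3 or Hg replicate 2 there was 1 proteasome member, and without Hg replicate 3 there were 6. Ribosomal members numbered 1 without Cd replicate 2, 0 without Cd replicate 3, Hg replicate 1 or Hg replicate 2, and 22 without Hg replicate 3.

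All 39 tested mitosis genes had a positive LFC (median 0.23), and 8 passed, all higher with Cd, AURKA, CCNA2, CENPE, KIF11, KIF20A, NDC80, NUF2 and PLK1. Against nt, 22 of the 39 were lower with Hg and 0 with Cd by the adjusted p, where 369 of all genes tested were with Hg (2.99%) and 55 with Cd (0.446%). The shift was small, with LFCs of 0.38 to 0.65 for the 8, and 5 passed without Hg replicate 1. CENPE, a mitotic motor, stood at 169, 154 and 130.1 CPM with Cd, 99.6, 97.3 and 93.3 with Hg and 169, 172 and 176 in nt (LFC 0.65, SE 0.11, adjusted p = 2.73e-05). Its Hg libraries lay below all Cd libraries, and these below all nt libraries. Of 40 replication genes, CCNE2 was higher with Cd and CDC6 higher with Hg. That is close to the shares over all genes tested, 1.64% higher with Cd and 2.14% higher with Hg. CCNE2 did not pass without Cd replicate 1 or 2 or Hg replicate 1 or 2, nor CDC6 without Cd replicate 2 or 3 or Hg replicate 1 or 2.

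Signalling genes were split. For comparison, 1.64% of all genes tested were higher with Cd by the adjusted p alone and 2.14% higher with Hg. Of 34 immediate-early and AP-1 genes, 4 were higher with Cd, IER5L, ID1, ID3 and ZFP36L2, and BTG1 was higher with Hg, where without Hg replicate 3 there were 3 members higher with Hg. EGR1 did not pass (LFC -0.11, 95% confidence interval -0.54 to 0.31), and neither did FOS and CXCL8, whose intervals were wide (-2.65 to 1.96 and -2.36 to 0.29). None of 19 tested members of the list of DUSP, SPRY and SPRED genes passed. YAP and SRF targets were higher with Cd in 5 of 28, among them ANKRD1, AJUBA, AMOTL2 and CCN1, and in 2 without Cd replicate 3, Hg replicate 1 or Hg replicate 2. Without Hg replicate 3, 2 were higher with Hg. Of 22 NF-kB and cytokine genes, 2 were higher with Cd, BIRC2 and BIRC3, and 1 without any one of the libraries compared except Cd replicate 2. INSIG1 of 33 sterol and fatty acid genes was higher with Cd, and no member was without any one of the libraries except Hg replicate 3. COL11A1 of 36 matrix genes was higher with Cd, and 2 members were without Cd replicate 2 and 3 without Hg replicate 3. As single members, BTG1, INSIG1 and COL11A1 are close to the shares over all genes and do not mark their lists. ANKRD1, a stretch-responsive cofactor, stood at 143, 154 and 129 CPM with Cd, 67.3, 78.7 and 72.4 with Hg and 53.1, 59.6 and 48.8 in nt (LFC 0.96, SE 0.12, adjusted p = 6.5e-09), with the Cd libraries above all others. Of 24 p53 targets, GADD45B and POLH were higher with Cd and PLK3, CDKN1A and TNFRSF10B with Hg, and without Cd replicate 1 there was 1 member higher with Hg. CDKN1A, the p21 inhibitor of the cell cycle, stood at 36.1, 37.1 and 36.6 CPM with Cd, 72.5, 89.2 and 57.7 with Hg and 31.02, 29.6 and 31.1 in nt (LFC -0.995, SE 0.16, adjusted p = 1.35e-05), and its Cd libraries lay just above nt. PLK3 was low (2.38, 5.85 and 5.69 CPM with Cd and 14.01, 12.8 and 11.05 with Hg, LFC -1.46, adjusted p = 0.00361), and its call was lost without Cd replicate 1 (adjusted p = 0.0817). Over the lists named here, 21 distinct members were called, and 17 to 30 when 1 library at a time was left out. The lists held 747 genes, not all of them tested. Over all genes, 80 of the 12341 tested were called (0.648%). Members of several lists, such as SLC7A11, CHAC1 and SQSTM1, count in each. The list genes that passed had adjusted p-values over all 12341 genes.

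The differences of 6 h were then followed in other libraries. Of the 39 genes higher with Cd at 6 h, 30 had a positive LFC in the 3 h libraries, 31 in those of 12 h and 30 in those of 24 h. Of all genes tested, 49.6%, 50.5% and 50.2% did. At 1.5 h, 21 of the 39 had a positive LFC, against 52.3% of all genes, and 25 of the 41 higher with Hg a negative one, against 47.6%. At that time 30 genes were called (0.243%), among them H1-5, a linker histone, higher with Cd and CHAC1 higher with Hg, as at 6 h. The 6 h call of H1-5 was lost without Cd replicate 1 or 2 or Hg replicate 1 or 2. Of the 41 higher with Hg, 29, 34 and 37 had a negative LFC at 3, 12 and 24 h, against 50.4%, 49.5% and 49.8% of all genes. Of both sets, 2 were called in the same direction at 3 h for Cd, MT1X and MT1E, and 5 for Hg, CHAC1, SESN2, PLK3, ZFAND2A and ST3GAL1, when 43 genes (0.348%) were called in all. At 12 h, 12 and 9 were called in the same direction, of 72 in all (0.583%), and at 24 h 12 and 21, of 540 (4.38%). GRHL1 and HYCC2, higher with Cd at 6 h, were called higher with Hg at 24 h, but the 6 h call of HYCC2 was lost without any one of the 6 libraries compared. The 6 h call of ST3GAL1 was lost without Cd replicate 2 or 3 or Hg replicate 2. H1-5, ST3GAL1, GRHL1 and HYCC2 were named after their values were seen. For comparison, 77 genes were called between Cd and nt at 6 h (0.624%) and 186 between Hg and nt (1.51%).

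**Figure D4:**
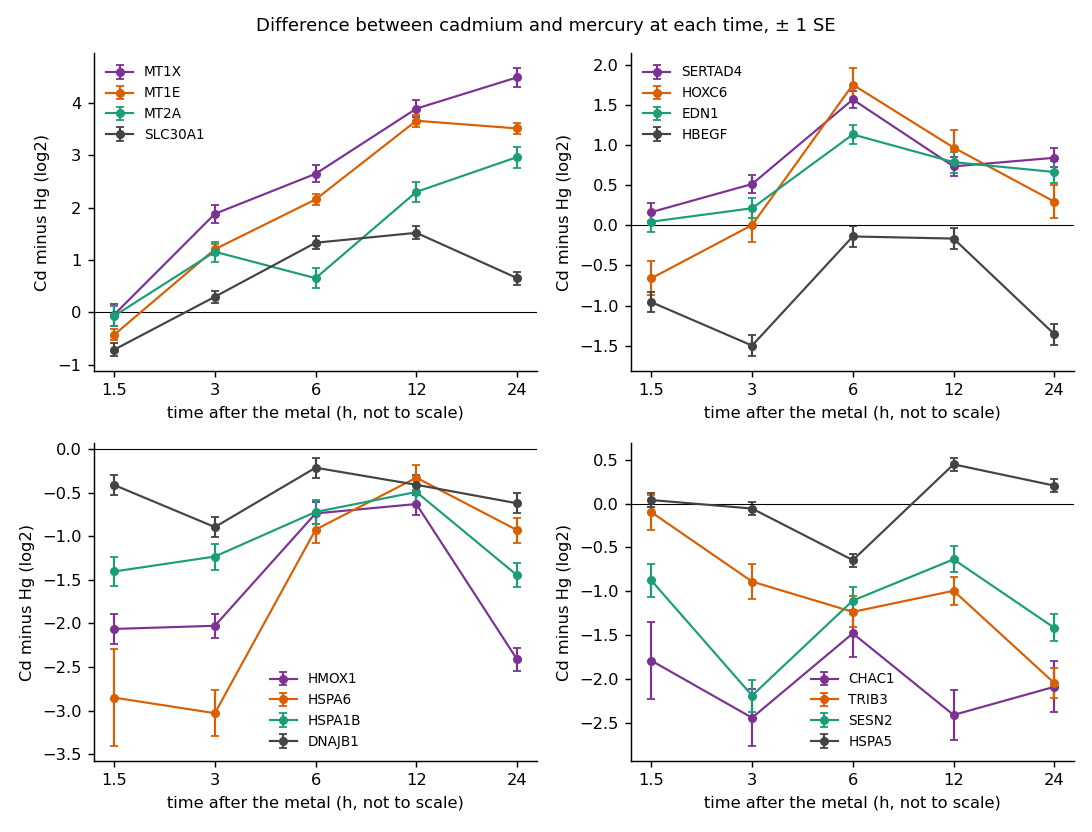
LFC of Cd over Hg (± 1 SE) at each of the 5 times from 1.5 to 24 h for 16 genes, each time from its own 6 libraries. The LFCs of MT1X and MT1E are at or below 0 at 1.5 h and larger at each later time up to 12 h, SERTAD4, HOXC6 and EDN1 peak at 6 h, HMOX1 and HSPA6 lie further below 0 at 1.5 and 3 h than at 6 and 12 h, and HSPA5 is below 0 at 6 h and above it at 12 h. At 24 h the LFC is -2.41 for HMOX1, -0.93 for HSPA6 and -1.36 for HBEGF.

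The 6 h difference itself departed from that of the neighbouring times. In a test of the difference between the 6 h and the 3 h contrast, 59 genes were called (0.478%), 24 with a higher and 35 with a lower Cd minus Hg value at 6 h. This number was unstable. It was 31 without Hg 6 h replicate 1, 28 without Hg 6 h replicate 2, 151 without Hg 6 h replicate 3, 36, 31 and 137 without Cd 3 h replicate 1, 2 or 3, and 36 without Hg 3 h replicate 2. Between 12 h and 6 h, 11 genes were called (0.0891%), 5 with a higher and 6 with a lower value at 12 h, 38 without Hg 6 h replicate 3 and 7 without Cd 12 h replicate 2. MT1X had LFCs of -0.042, 1.88, 2.65, 3.89 and 4.49 at the 5 times in order. SLC30A1 started on the other side, at -0.71 at 1.5 h (adjusted p = 0.000193), and reached 1.52 at 12 h. HOXC6 had LFCs of 0.0033, 1.75 and 0.97 at 3, 6 and 12 h, highest at 6 h. AKR1C1 went from -0.35 at 3 h (adjusted p = 0.39) to -1.59 at 12 h and -2.62 at 24 h.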

How the data were processed

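Total RNA of 1321N1 cells was sequenced by the study with the QuantSeq 3′ mRNA FWD kit, which reads the 3′ end of transcripts, so counts need no length correction. Per the labels and the study's methods, the authors aligned the reads with STAR 2.7.9a to GRCh38 with the basic GENCODE annotation, counted them per gene with GenomicAlignments in a strand-specific union mode that drops reads overlapping several genes, and deposited raw counts. The 92 spike-in rows held 0 counts and were removed. Libraries were grouped by their titles. All 60 libraries were fitted in 1 model with a term for each of 20 groups of 3 (edgeR 4.0.16 in R 4.3.3, TMM, genes kept with filterByExpr at a minimum count of 10 and a total of 15, quasi-likelihood F-test), and p-values were adjusted over all 12341 genes by the Benjamini-Hochberg method. Standard errors are the LFC divided by the root of F, and confidence intervals are 95% t intervals from them. Counting intervals and the floor of 3 counts cover counting error only, and the floor only that of the group with 0 counts.

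The named genes were the 12 highest and 12 lowest LFCs among called genes with a mean of at least 20 CPM, up to 6 called members per list, 25 metal and stress genes in either case (24 were tested), the 5 smallest p-values of each test between times among genes of at least 20 CPM, and the ends of each list. Other list members that passed were named after their values were seen. One list member is not reported here. The comparison and the lists were chosen with earlier results of these data known, so list counts and medians are descriptions. Promoters were found in RefSeq for 47 of 55 named genes. The script was tested on simulated data. Alternatives were RLE scaling, DESeq2 with and without ashr, other count filters, a test of an LFC beyond 1, only the libraries compared, a replicate block, and leaving out each library.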

Additional observations from a re-analysis of the deposited data

Results flagged for a closer look

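A set of 10 changes was singled out because the Cd minus Hg difference itself differed between times. They had the 5 smallest p-values (edgeR) in each test between times among genes of at least 20 CPM, and MT1E was in both. The tests called 59 genes for 6 h against 3 h and 11 for 12 h against 6 h. The changes of MT1E against 3 h and of MANF were below 1 and not among these calls. Against 3 h, HBEGF, an EGF receptor ligand, moved by 1.36 (SE 0.19, adjusted p = 8.42e-06). Its LFC was -1.50 at 3 h and -0.14 at 6 h, where its level was 91.1 ± 9.64 CPM with Cd against 100.4 ± 5.45 with Hg (SD, n = 3 each). HMOX1 moved by 1.29 (SE 0.18, adjusted p = 1.05e-05), from -2.03 to -0.74, and HSPA6 by 2.10 (SE 0.32, adjusted p = 2.41e-05), from -3.03 to -0.92. These genes were higher with Hg at 3 h, and the gap was smaller at 6 h. It did not stay so, since at 24 h the LFCs of HBEGF, HMOX1 and HSPA6 were -1.36, -2.41 and -0.93. SERTAD4 moved by 1.05 (SE 0.16, adjusted p = 2.12e-05) and MT1E by 0.95 (SE 0.14, adjusted p = 2.26e-05), from 0.51 and 1.21 at 3 h, so that their excess with Cd was larger at 6 h.

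From 6 h to 12 h, MT1E moved by a further 1.50 (SE 0.14, adjusted p = 1.71e-11) and MT2A by 1.65 (SE 0.26, adjusted p = 0.000153), to 3.66 and 2.30. The others were ER genes. HSPA5 went from -0.65 at 6 h to 0.45 at 12 h, a change of 1.09 (SE 0.11, adjusted p = 1.92e-11). SDF2L1 went from -0.62 to 0.80, a change of 1.42 (SE 0.24, adjusted p = 0.000288), and MANF from -0.26 to 0.42, a change of 0.68 (SE 0.12, adjusted p = 0.000611). At 6 h itself MANF did not pass (adjusted p = 0.0586), and SDF2L1 missed the threshold without Cd replicate 2, Cd replicate 3 or Hg replicate 2 (adjusted p = 0.0688, 0.0984 and 0.144). All 10 changes passed by the adjusted p in each of the 18 alternatives run for them, with values up to 0.0248, the highest being that of MANF. Groups of 3 libraries are too small for a test of single outlying samples.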

How the results depend on the processing

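The number of genes called between Cd and Hg at 6 h, 80, was 81 with RLE scaling (80 of them shared), 81 with DESeq2 (72 shared), 74 without a filter on low counts and 79 with a stricter one. It was 48 (22 of them higher with Hg) when only the 6 libraries compared were fitted, 24 with the LFC shrunk by ashr (12 higher with Cd and 12 higher with Hg), and 6, all 6 higher with Cd and 0 with Hg, in a test of an LFC beyond 1. Leaving out 1 library at a time gave 57 to 126 genes, 28 to 57 of them higher with Cd and 27 to 69 higher with Hg. Of the 80, 31 were called in each of these 6 fits. Only 4 were called in every alternative, MT1X, MT1E, SERTAD4 and ENSG00000289942, all higher with Cd. Without 1 library, the members called over the lists were 17 to 30, the genes called for 6 h against 3 h 28 to 151, those for 12 h against 6 h 7 to 38, those of Cd against nt 62 to 76 and those of Hg against nt 163 to 217. The genes called for 6 h against 3 h were 37 with only the libraries compared, and those for 12 h against 6 h were 25 without a filter and 21 with DESeq2. The cause of these shifts was not tested. Replicate numbers did not pair the libraries, since the deviations of Cd and Hg libraries of the same number correlated at -0.0251, 0.000725 and 0.00571 and no Cd library correlated best with its own number. With the number as a replicate block, 83 genes were called between Cd and Hg (79 shared), 61 for 6 h against 3 h, 12 for 12 h against 6 h, 76 for Cd against nt and 184 for Hg against nt. No named gene that passed the test changed direction under any alternative run, whereas the LFCs of EGR1 and FOS, which did not pass, took either sign. With 2589901 to 4110137 counts in a library, 1 CPM is only a few counts, which limits genes such as FOS and GABARAPL1.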

Other observations

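Below the level of 20 CPM, several called genes had no overlap between the metals. They were named after their values were seen. Such a separation was found in 8.52% of all genes tested with Cd above Hg and in 8.56% with Hg above Cd. CEBPB-AS1, a non-coding RNA antisense to CEBPB, had 37, 45 and 41 counts with Cd and 0, 5 and 9 with Hg, a ratio of 10.9 (exact 95% counting interval 6.24 to 20.5), and 1, 1 and 7 counts in nt. CEBPB, the transcription factor gene itself, differed in the opposite direction, at 251, 257 and 309.7 CPM with Cd, 478, 493 and 449 with Hg and 115, 149 and 136 in nt (LFC -0.80, SE 0.12, adjusted p = 1.29e-06). Counting was strand-specific per the study's methods. RGS16, a regulator of G-protein signalling, stood at 30.1, 31.2 and 25.6 CPM with Cd, 9.14, 9.29 and 9.09 with Hg and 4.90, 5.48 and 4.49 in nt (LFC 1.66, SE 0.28, adjusted p = 3.5e-05), and GRHL1, a grainyhead-like transcription factor, at 18.2, 19.1 and 17.8 CPM with Cd, 4.57, 6.39 and 3.19 with Hg and 4.08, 4.39 and 6.10 in nt (LFC 1.96, SE 0.31, adjusted p = 9.5e-06). For both, the Cd libraries lay above all Hg and nt libraries. LFNG, a glycosyltransferase of the Notch receptor, stood at 18.2, 14.8 and 9.96 CPM with Cd, 5.48, 5.23 and 5.40 with Hg and 20.00, 18.3 and 17.3 in nt (LFC 1.42, SE 0.31, adjusted p = 0.00217), with the Hg libraries below the others. Its call was lost without Cd replicate 1.

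On the mercury side, UNC5B, a netrin receptor, stood at 3.28, 3.90 and 6.04 CPM with Cd, 13.1, 19.7 and 14.98 with Hg and 6.53, 3.29 and 5.14 in nt (LFC -1.86, SE 0.30, adjusted p = 8.97e-06), and SMOX, which oxidizes spermine, at 6.26, 4.29 and 4.27 CPM with Cd, 14.6, 17.1 and 16.9 with Hg and 5.71, 2.56 and 6.42 in nt (LFC -1.69, SE 0.38, adjusted p = 0.00272). The Cd libraries of both overlapped nt. ST8SIA1, a sialyltransferase, had 0 counts in every Cd library, 6, 2 and 8 with Hg and 2, 1 and 0 in nt. With 3 counts over the Cd group as the floor, its observed level with Hg was at least 4.31-fold higher. That bound leaves out the counting error of the Hg counts. Its ratio of Hg to nt was 4.1 (exact 95% counting interval 1.17 to 22.0). Its call was lost without Cd replicate 1, 2 or 3 or Hg replicate 1.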
